A study of Mus musculus with 24 samples.

Results

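The genes described here encode the proteins of the cytosolic ribosome, together with a few relatives that share their names, such as Rpl7l1, Rpl3l and Rpl10l. Members were chosen by name alone: symbols of the form Rpl or Rps followed by a number, with a few allowed suffixes, together with Rplp0, Rplp1, Rplp2 and Rpsa. Of 26995 genes in the count tables, 85 matched. By symbol alone, relatives included, 50 were counted with the large subunit, 32 with the small subunit and 3 with the stalk. The tables list 126 annotated 3′UTR entries for these 85 symbols, and the entry with most reads on average stood for its gene.

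The cells were 3T3-L1, an established line of mouse embryonic fibroblasts that become adipocytes when given a hormonal cocktail. Here it held dexamethasone, 3-isobutyl-1-methylxanthine and insulin, with fetal bovine serum in place of the bovine calf serum used before induction. At day 3 it was replaced by medium with fetal bovine serum and insulin, without dexamethasone and 3-isobutyl-1-methylxanthine. The medium thus changed with the days, and its part in the differences between days was not tested. Cells were kept with vehicle (DMSO) or with 0.5 µM ML-792, an inhibitor of the SAE1/2 enzyme that starts the attachment of SUMO to other proteins. RNA was taken at day −2 (pre-adipocytes), day 1, day 3 and day 7, with 3 libraries labelled A, B and C in each of the 8 conditions, so that 24 libraries were used. All 24 cultures received 100 µM 4-thiouridine for 45 min before lysis. This uridine analogue is built into new RNA and, after SLAMseq conversion, leaves T>C changes in QuantSeq reads, which come from 3′ ends of mRNA. Reads with at least 1 such change are called labelled reads below, and all reads together are called total reads.

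A ribosome needs a copy of nearly every ribosomal protein, and the genes are known to be transcribed at high rates into long-lived mRNAs. These mRNAs belong to the TOP class, so called because they start with a terminal oligopyrimidine tract, a run of C and T bases (C and U in the RNA) right at the transcription start. The tract lets the kinase complex mTORC1 and the RNA-binding protein LARP1 control translation and storage of the whole class together.

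The starts of 11 members for which the counts below carry a result are shown first, since the class is named after a feature of this stretch. Each line gives 30 bases of the sense strand, the 15 before the RefSeq start and the 15 from it on (GRCm38.p6, the build also called mm10). Capitals mark the longest unbroken run of C and T in that window. The first 6 members hold a run of at least 8. It spans the annotated start in Rpl27a, Rpl15 and Rpl14 and lies just after it in Rpl13a. In Rpl4 and Rps15a it ends before the annotated start, so that a tract at the very start of the mRNA is not what the capitals mark there.

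Rpl27a: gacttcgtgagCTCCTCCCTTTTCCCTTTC
(chr7:109519180-109519209, plus strand)

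Rpl15: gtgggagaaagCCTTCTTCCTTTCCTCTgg
(chr14:18270972-18271001, minus strand)

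Rpl14: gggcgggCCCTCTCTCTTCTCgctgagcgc
(chr9:120571502-120571531, plus strand)

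Rpl13a: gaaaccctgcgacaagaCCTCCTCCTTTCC
(chr7:45128731-45128760, minus strand)

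Rpl4: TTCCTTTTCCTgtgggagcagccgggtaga
(chr9:64173372-64173401, plus strand)

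Rps15a: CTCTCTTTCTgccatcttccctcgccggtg
(chr7:118116133-118116162, minus strand)

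In the remaining 5 the longest run was shorter than 8.

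Rplp0: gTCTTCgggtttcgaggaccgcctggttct
(chr5:115559452-115559481, plus strand)

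Rpl37a: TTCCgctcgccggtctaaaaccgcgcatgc
(chr1:72711245-72711274, plus strand)

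Rpl5: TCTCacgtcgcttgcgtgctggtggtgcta
(chr5:107900513-107900542, plus strand)

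Rpl10: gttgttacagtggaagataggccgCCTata
(chrX:74270801-74270830, plus strand)

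Rpl7l1: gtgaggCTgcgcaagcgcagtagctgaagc
(chr17:46782642-46782671, minus strand)

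The RefSeq promoter table held 65 of the 85 members. A run of 8 or more pyrimidines near the start was present in 28 of them (43.1%), against 13.9% of 27025 genes in the table. In the 300 bases from 250 before to 50 after the start, searched on both strands, CCGGAAG, the core of sites for ETS factors, was found in 26 of the 65 members and in 9.93% of all genes. AAGATGG, a core of YY1 sites, was found in 15.4% and 7.28%, and in no member did it overlap the ETS core. The SP1 core GGGCGG was found in 61.5% and 38.2%, and the TATA box, TATAAA, in 12.3% and 15.7%. Matches to all but the last of these were thus more frequent in members than in all genes, with no test made. They are matches of letters near an annotated start, and the start used in these cells was not measured.

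Total reads per library over all entries ranged from 13554718 to 27013352, and labelled reads from 115709 to 820046. Of these, 91530 to 374974 total reads fell on the members, with a median of 205658.5. Their labelled reads numbered 474 to 2328 per library. After the filter on low counts, 73 of 85 members could be tested in total reads and 31 in labelled reads. The 12 left out in total reads were Rpl10a, Rpl10l, Rpl29, Rpl3, Rpl30, Rpl32l, Rpl36, Rpl39l, Rpl3l, Rps29, Rps3a1 and Rps4x. The summed normalised count of 8 adipocyte markers (Adipoq, Fabp4, Pparg and others) lay between 22002 and 23740 in DMSO at day −2 and between 648304 and 728245 at day 7, whereas that of 8 pre-adipocyte markers lay between 395972 and 434573 at day −2 and between 47036 and 68991 at day 7. Of 6 macrophage markers Ptprc and Tyrobp had 0 reads in all 24 libraries and Cd68 and Cd14 had reads in every library, and the summed normalised count of the list was 95.3 to 439. Of 5 epithelial markers Epcam had 0 reads in all 24 libraries, and the sum was 0 to 63.5, highest in DMSO at day 7. The part of these markers in the results was not tested.

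Many ribosomal protein genes have processed copies elsewhere in the genome, and short reads from near-identical ends cannot be placed with certainty. The last 50 bases of each member's entry were compared with the genome, counting places with at least 48 identical bases. No second place was found for 41 members, whose median was 1289 mean reads, and 38 of these were tested. For 21 members with 1 to 3 other places the median was 67.9 mean reads, and for 23 members with 4 or more it was 34.0. Genes with copies, such as Rpl13a (3 places), Rpl10 (4), Rplp1 (6), Rpl9 (9), Rpl7 (12) and Rps19 (15), are therefore uncertain in level, in total and in labelled reads. The end of Rpl7l1 matched 2714 places.

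Libraries with the letter B stood apart. The share of all reads that fell on the members was highest in B in 8 of 8 conditions, at 1.213 to 1.63 times the mean of A and C. For the members as a group, each day against day −2, day 7 against day 3 and ML-792 against DMSO are therefore also given within each letter.

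Ribosomal protein mRNA took a larger share of reads on days 1 and 3 than before induction, and its smallest share on day 7. On days −2, 1, 3 and 7 the members' share in DMSO was 1.52% ± 0.457 (SD, n = 3), 2.09% ± 0.591, 1.96% ± 0.421 and 0.931% ± 0.107. With ML-792 the share was 1.40% ± 0.241, 1.99% ± 0.388, 2.17% ± 0.558 and 1.03% ± 0.236 on the same days. Within letters A, B and C, the summed normalised count at day 1 was 1.324, 1.413 and 1.406 times that at day −2, and at day 3 it was 1.233, 1.26 and 1.73 times. At day 7 it was 0.6157, 0.4939 and 0.4457 times that at day 3 and 0.7588, 0.622 and 0.7709 times that at day −2. The 3 letters moved in the same direction in each of these steps. In bulk RNA, fewer cells with a transcript and less of it per cell cannot be told apart, and a share of reads also falls when other mRNAs, such as those of the adipocyte markers given above, rise; the part of this in the result was not tested.

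**Figure D1:**
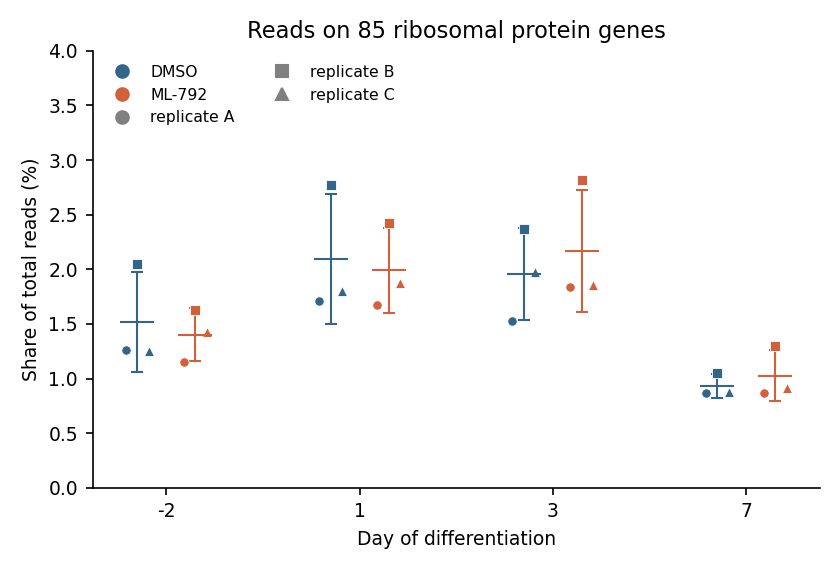
Share of all reads (percent, 1 entry per gene) that fell on the 85 members, by day of differentiation, with DMSO and ML-792 side by side. Points are single libraries with the letter given by marker shape, and bars are means with SD (n = 3). Day 7 was lowest for both treatments (0.931% in DMSO and 1.03% with ML-792), and letter B was the highest of its 3 libraries in all 8 conditions.

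At day 1, most ribosomal protein genes were fitted above day −2, and few passed the test. Of 73 members, 63 had a higher fitted level, with a median log2 fold change of 0.45, where the median over all 13274 genes tested was 0.04. By edgeR's quasi-likelihood test at an adjusted p of 0.01, 8 members rose and 0 fell; 7.65% of all genes rose and 9.4% fell. The 8 were Rpl13a, Rpl37a, Rpl7l1, Rpl8, Rpl9, Rplp0, Rps25 and Rps6, with log2 fold changes from 0.69 to 1.51. Without letter A or without letter C the number of calls was 1, and without letter B it was 9. RPS6 is the classical substrate of the S6 kinases downstream of mTORC1, and its log2 fold change was 0.97 ± 0.21 (SE, adjusted p = 0.00384, edgeR).

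Rpl37a, a large subunit protein gene, had the largest rise at day 1. Its normalised counts in A, B and C were 910, 1012 and 810 at day −2 and 2353, 3060 and 2345 at day 1. By day 3 they were 1075, 1596 and 1480, and at day 7 they were 515, 698 and 499. The groups at day −2 and day 1 did not overlap, and the level came down again by day 3. The rise was 1.51 ± 0.20 on the log2 scale (adjusted p = 6.18e-05, edgeR), and from day 1 to day 3 the change was −0.90 ± 0.20 (adjusted p = 0.00271, edgeR). Rpl37a was the only member called between day 1 and day 3, where 23.3% of all genes were called; without letter A or C there was no call, and without letter B there were 2.

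Day 3 was compared with day −2 in the same way. Of 73 members, 66 were fitted above day −2 with a median of 0.48 (0.07 over all genes). The test called 7 members higher and 0 lower, against 18% and 18.5% of all genes, a smaller share of members than of all genes. Within letters A, B and C, 61, 63 and 67 members were higher, with medians of 0.35, 0.38 and 0.78. Without letter A or without letter C the number of calls was 1, and without letter B it was 16. Among the 7 were Rpl13a, Rpl7l1, Rpl9 and Rpsa. Rpsa, which encodes the small subunit protein also described as a laminin receptor precursor, had normalised counts of 976, 1490 and 1098 at day −2 and 1542, 2297 and 2308 at day 3. All 3 libraries of day 3 were above all 3 of day −2 (log2 fold change 0.79 ± 0.22, adjusted p = 0.00858, edgeR).

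Between day 3 and day 7 the members fell nearly as a block. The cocktail was replaced by medium with insulin alone of its 3 compounds at day 3, and the part of this in the fall was not tested. The fitted level was lower in 72 of 73 members, with a median log2 fold change of −1.10 where the median of all genes was −0.02. The test called 24 members lower and 0 higher, against 4.78% of genes called lower and 6.07% called higher. Within the letters A, B and C, 71, 72 and 72 of 73 members were lower at day 7, with medians of −0.69, −1.23 and −1.18, while 48.9% to 50.5% of all genes were lower. The count of calls rests on which libraries are kept: it was 2 without letter A, 1 without letter C and 32 without letter B, with member medians of −1.19, −1.03 and −1.0. Over all genes the calls also dropped, from 1441 to 253 without A and 457 without C, and were 1871 without B.

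The fall was seen in all parts of the ribosome. Its median on the log2 scale was −1.10 over 41 large subunit members, −1.19 over 29 small subunit members and −1.0 over the 3 stalk members. It was −1.10 both over 40 members with a mean of at least 300 reads, of which 22 were called, and over 33 with fewer reads, of which 2 were called. Members without a near-identical copy had a median of −1.07 (19 of 38 called) and those with copies −1.11 (5 of 35 called). The sequence printed at the start gave similar values on both sides: the median was −1.07 over 27 members with a run of at least 8 pyrimidines and −1.04 over 31 with shorter runs, with 9 called in each group. No test was made of these differences between groups of members.

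**Figure D2:**
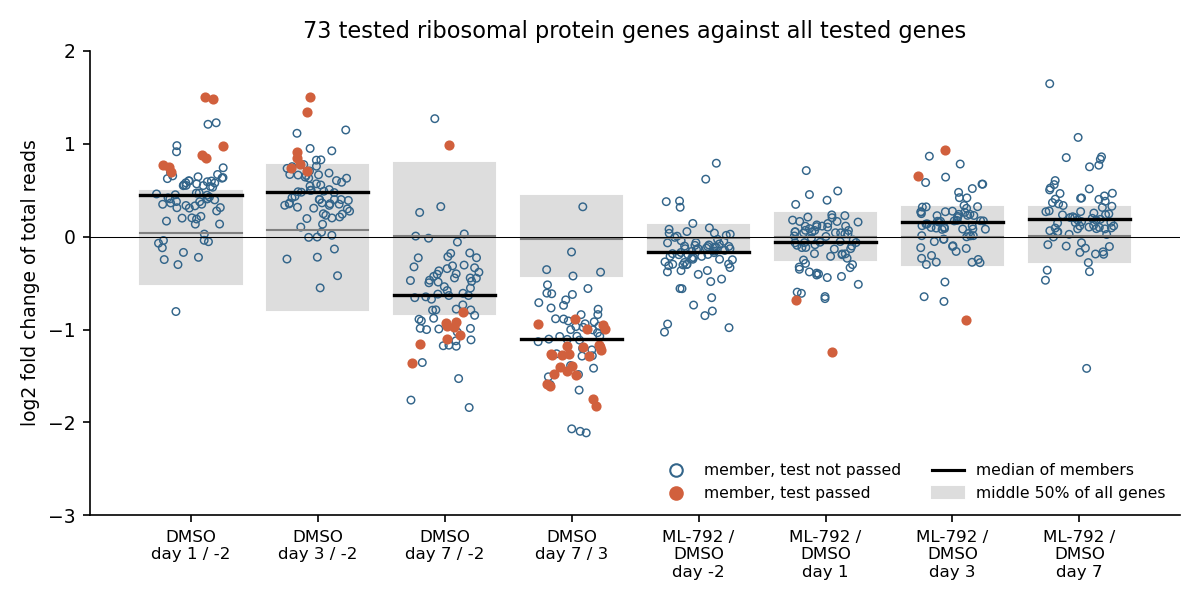
Fitted log2 fold change of total reads for each of the 73 tested members, in 8 comparisons. Filled points passed the test of that comparison, black lines are medians of the members, and grey boxes hold the middle of all tested genes with their median as a grey line. The median member sits above the median gene at day 1 and day 3 (0.45 and 0.48) and below it from day 3 to day 7 (−1.10), and lies close to 0 in the comparisons of ML-792 with DMSO.

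The acidic stalk proteins recruit elongation factors to the ribosome. Of their 3 genes, Rplp0 rose at day 1, and Rplp0 and Rplp1 fell from day 3 to day 7. Rplp0, the base of the stalk, had normalised counts of 7169, 8584 and 6950 at day −2 and 11692, 18165 and 11718 at day 1. At day 3 they were 9537, 11360 and 12770, and at day 7 they were 4844, 6411 and 5618. The 3 libraries of day 1 lay above all those of day −2, and those of day 7 lay below all other DMSO libraries. On the log2 scale it rose by 0.87 ± 0.20 at day 1 (adjusted p = 0.00563, edgeR), and the change from day 3 to day 7 was −1.0 ± 0.20 (adjusted p = 0.00324, edgeR).

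Rplp1 had normalised counts of 5476, 6629 and 4762 at day −2, 7780, 9543 and 7357 at day 1, 7891, 10047 and 8867 at day 3, and 3504, 3555 and 2530 at day 7. Day 7 was again below every earlier library. From day 3 to day 7 its log2 fold change was −1.48 ± 0.19 (adjusted p = 9.33e-05, edgeR), the smallest p of any member in that comparison. Rplp2 drew few reads: 44.9, 45.8 and 84.4 before induction, then 75.8, 98.9 and 78.3 on day 1, 69.5, 129 and 112 on day 3, and 46.1, 59.3 and 62.6 on day 7. It did not pass the test in any comparison of days.

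**Figure D3:**
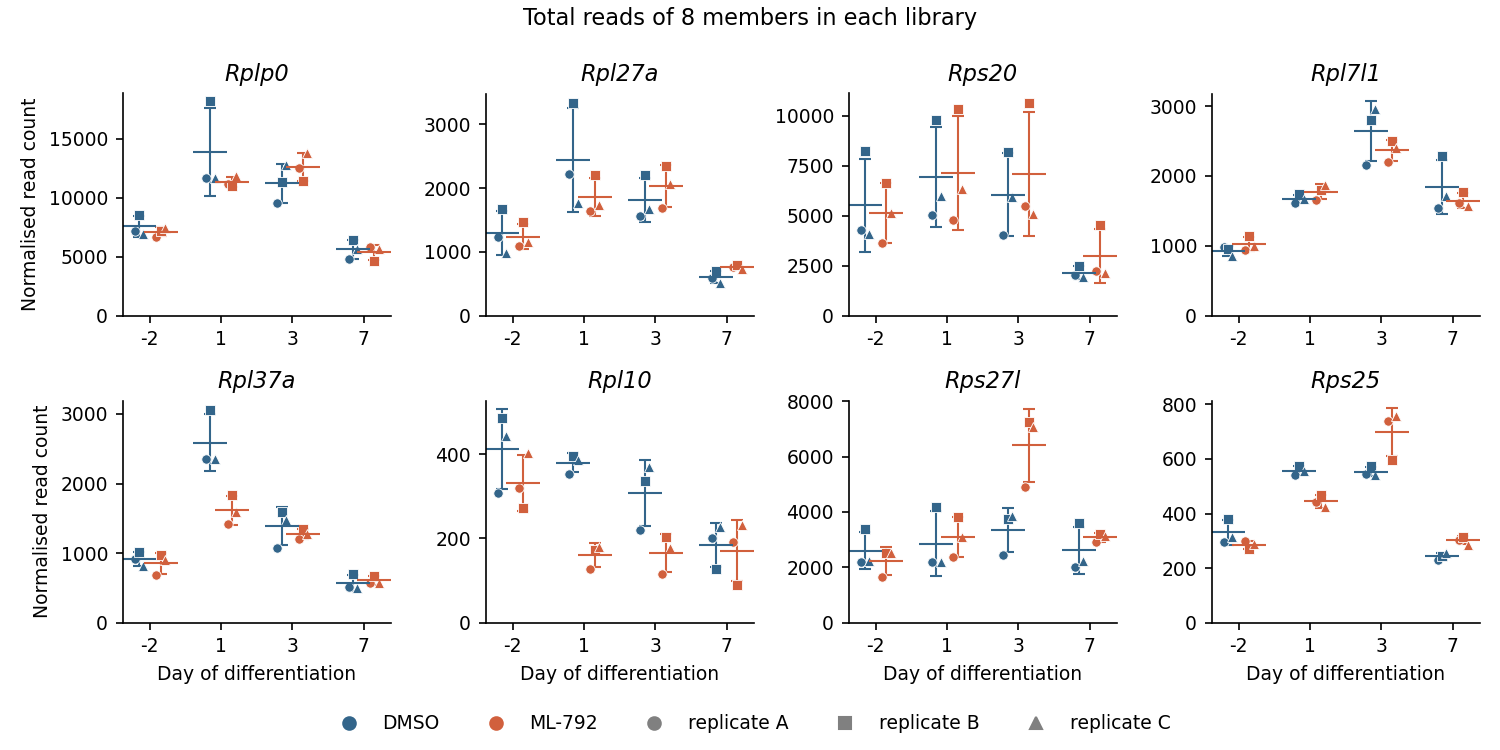
Normalised read count of 8 members in each of the 24 libraries by day of differentiation. Colour gives the treatment and marker shape the letter, and bars are means with SD (n = 3). In DMSO, Rplp0, Rpl27a and Rps20 are lowest at day 7, Rpl7l1 is lowest at day −2, Rpl10 and Rpl37a are lower with ML-792 at day 1 (log2 fold changes −1.24 and −0.68), and Rps27l is higher with ML-792 at day 3 (0.94).

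Set against pre-adipocytes, ribosomal protein mRNA in day 7 adipocytes was lower in most members. The fitted level was below day −2 in 67 of 73, with a median of −0.63 (0.01 over all genes). The test called 9 members lower and 1 higher, against 19.2% and 19.4% of all genes. Within letters A, B and C, 62, 62 and 60 members were lower. The count of calls in both directions was 10 with all libraries, 2 without letter A, 1 without C and 12 without B, and with library totals in place of TMM factors it was 16, where the median of all genes was −0.15 and that of the members −0.80.

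The 3 lowest of these were Rps20, Rpl10 and Rpl27a. Rps20, a small subunit protein gene (entry at chromosome 4, 3831584 to 3834500, minus strand), had normalised counts of 4274, 8230 and 4069 at day −2 and 2042, 2508 and 1918 at day 7. The groups did not overlap, although letter B was far above A and C at day −2. Its log2 fold change was −1.36 ± 0.32 (adjusted p = 0.00257, edgeR), and the call was lost without letter A or C.

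Rpl27a, a large subunit gene whose start carries an uninterrupted run of pyrimidines to the end of the printed window, has its entry at chromosome 7, 109521730 to 109522369. Its counts were 1238, 1675 and 980 at day −2, 2218, 3342 and 1770 at day 1, 1570, 2211 and 1679 at day 3, and 590, 702 and 520 at day 7. Every library of day 7 was below every earlier one. Against day −2 the change was −1.10 ± 0.25 on the log2 scale (adjusted p = 0.00214, edgeR), a call lost without letter A. Against day 3 it was −1.59 ± 0.25 (adjusted p = 0.000479, edgeR).

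Rpl10 encodes a protein that joins the large subunit late in its assembly, and its counts were 307, 486 and 444 at day −2, 354, 396 and 387 at day 1, 221, 335 and 368 at day 3, and 200, 127 and 226 at day 7. Its mean on days 1 and 3 was not above that of day −2, unlike that of most members. Its change at day 7 was −1.16 ± 0.26 on the log2 scale (adjusted p = 0.00194, edgeR), a call lost without letter B or C. Among all members its mean profile over the 8 conditions was the least like that of the others.

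The other 6 that fell were Rps27a, Rps24, Rps21, Rpl5, Rps15a and Rplp1, with log2 fold changes from −1.06 to −0.81. Rps27a encodes a ribosomal protein made as a fusion with ubiquitin. RPL5 binds ribosomal RNA before assembly and, when free, the p53 regulator MDM2. For Rpl5 the log2 fold change was −0.93 ± 0.26 (adjusted p = 0.00841, edgeR).

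Rpl7l1 was the member that rose. It encodes a relative of RPL7, and its counts were 990, 951 and 849 at day −2, 1619, 1737 and 1664 at day 1, 2160, 2805 and 2964 at day 3, and 1544, 2281 and 1707 at day 7. Every library after induction was above every library of day −2. It rose by 1.51 ± 0.18 on the log2 scale at day 3 (adjusted p = 7.77e-06, edgeR). At day 7 the difference was 0.99 ± 0.18 (adjusted p = 0.000359, edgeR), a call lost without letter C. The many genomic matches to the end of its entry, given above, make this level uncertain.

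Likeness among members was measured as the correlation of each member's mean log2 profile over the 8 conditions with the mean profile of the others. These are 8 points that share libraries and depth, and the values are descriptive. The median r was 0.932, 51 of 73 members were above 0.9 and 5 were under 0.5. DMSO at day 7 was the lowest condition for 49 members, and ML-792 at day 3 the highest for 44. The 3 least alike were Rpl10 (r = 0.131), Rps19 (0.367) and Rps27 (0.400). The last 2 had a mean of 14.2 reads each, so that their profiles rest on few counts.

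Rps19 was counted at 4.81, 16.7 and 5.22 in A, B and C at day −2 in DMSO, 16.9, 35.1 and 10.9 at day 1, 2.21, 21.2 and 7.29 at day 3, and 8.99, 13.5 and 4.55 at day 7. Rps27, at 9.61, 4.41 and 8.70, then 8.43, 27 and 17.7, then 8.82, 28.2 and 7.29, then 13.5, 12.5 and 29.6 on the same days, was as thinly covered. In Rps19 the libraries of every day overlapped those of every other day, and in Rps27 those of day 7 lay above those of day −2 without passing the test (log2 fold change 1.27 ± 0.69, adjusted p = 0.151, edgeR).

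Several members come with a paralog. For 4 such pairs both genes passed the filter, and of Rpl10 and Rpl39 the partner did not. Rpl3, Rps4x and their relatives were not tested. Rpl22 had counts of 7260, 11532 and 6404 at day −2 and 4843, 7198 and 4802 at day 7. Its relative Rpl22l1 had 2514, 4237 and 2530 at day −2, 3785, 4591 and 4589 at day 3, and 1923, 1389 and 2058 at day 7. From day 3 to day 7 Rpl22l1 fell by 1.27 ± 0.28 on the log2 scale (adjusted p = 0.006, edgeR), and Rpl22 had a log2 fold change of −0.78 ± 0.29 (adjusted p = 0.0807, edgeR). The difference between the paralogs was not tested.

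Rps27l, a relative of Rps27 known as a p53 target gene, stood at 2185, 3388 and 2248 at day −2, 2194, 4197 and 2197 at day 1, 2443, 3751 and 3849 at day 3, and 2026, 3603 and 2220 at day 7. Its level at day 7 had a log2 fold change of 0.01 ± 0.29 against day −2, with groups that overlapped. Rpl36a (82.5, 85.5 and 98.4 at day −2 and 65.2, 70.8 and 53.5 at day 7) and Rpl36al (84.9, 315 and 156, and 182, 178 and 189) were not called at day 7 against day −2 or day 3. Rpl7 went from 51.3, 22.9 and 57.5 to 68.6, 52.0 and 44.4, with overlapping groups, unlike Rpl7l1. Rpl39, which encodes a very small protein of the large subunit, had 5781, 13297 and 6185 at day −2 and 4052, 6350 and 4776 at day 7. Its groups overlapped, and its log2 fold change of −0.73 ± 0.41 did not pass (adjusted p = 0.165, edgeR).

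Few ribosomal protein genes passed the test for ML-792 against DMSO on any day. At day −2, 0 members were called by edgeR at an adjusted p of 0.1, where 3 had an unadjusted p under 0.05 and DESeq2 called 0; 0% of all genes were called. At day 1, 2 members were lower, against 7.9% of all genes called in either direction. At day 3, 2 were higher and 1 was lower, against 15.6%. At day 7, 0 were called by edgeR (3 with an unadjusted p under 0.05, 0 by DESeq2), against 11.8%. With the letters fitted as a replicate block, 4 members were called at day 7 and more than above at day 3, as the closing section gives. The median log2 fold changes on the 4 days were −0.17, −0.05, 0.16 and 0.19, with medians of all genes between −0.01 and 0.01. The calls depend on which libraries are kept. Without letter A or without letter C, 0 members were called on any of the 4 days, and without letter B, 3 were called at day 1, 4 at day 3 and 3 at day 7. Differentiation markers also differed on these days. The summed pre-adipocyte markers at day 3 were 52211 to 60981 in DMSO and 75286 to 88485 with ML-792, and the summed adipocyte markers at day 7 were 648304 to 728245 and 881227 to 911255. Their part in the members' values was not tested.

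Within letters, the sign of the shift was not shared except at day 7. The summed normalised count with ML-792 over that in DMSO was 0.9143, 0.7513 and 1.137 at day −2 in A, B and C, 0.9981, 0.782 and 1.067 at day 1, and 1.275, 1.158 and 0.9212 at day 3. At day 7 it was 1.07, 1.105 and 1.058. Only at day 7 did all 3 letters lie on the same side.

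Rpl10 had the largest called difference between ML-792 and DMSO. With ML-792 its counts were 319, 272 and 404 at day −2, 127, 173 and 181 at day 1, 116, 204 and 177 at day 3, and 192, 90.1 and 232 at day 7. At day 1 and day 3 every ML-792 library was below every DMSO library of that day, and at day −2 and day 7 the groups overlapped. At day 1 the difference was −1.24 ± 0.30 on the log2 scale (adjusted p = 0.0124, edgeR). At day 3 it was −0.89 ± 0.30 (adjusted p = 0.0614, edgeR), and both calls were lost without letter A or C, the latter also in a fit of the 6 libraries of that day. The entry has 4 near-identical places in the genome.

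Rpl37a, which rose most at day 1 in DMSO, had 683, 972 and 903 at day −2 with ML-792, 1415, 1835 and 1596 at day 1, 1208, 1342 and 1272 at day 3, and 576, 678 and 574 at day 7. At day 1 all 3 libraries lay below the 3 of DMSO, and still above those of day −2. Against DMSO the log2 fold change was −0.68 ± 0.18 (adjusted p = 0.0234, edgeR), lost without letter A or C. The end of this entry had no second place in the genome.

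Rps27l and Rpl5 were higher with ML-792 at day 3. Rps27l had 1655, 2520 and 2516 at day −2, 2391, 3812 and 3084 at day 1, 4895, 7252 and 7071 at day 3, and 2914, 3200 and 3131 at day 7. The 3 libraries of day 3 were above all other libraries of this gene, in either treatment (log2 fold change 0.94 ± 0.28, adjusted p = 0.0302, edgeR). Rpl5 had 330, 432 and 383 in DMSO at day 3 and 540, 628 and 637 with ML-792, without overlap (0.66 ± 0.21, adjusted p = 0.0492, edgeR). Both calls were lost without letter A or C, and that of Rpl5 also without the filter on low counts. Both genes are tied by textbook knowledge to p53, as target and as regulator.

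The response to ML-792 differed between days for 1 member, Rps25, by edgeR's F-test of the 3 interaction terms (adjusted p = 0.0415), where 12% of all genes were called. RPS25 is a small subunit protein known for its part in translation started from internal entry sites. In DMSO its counts were 295, 381 and 316 at day −2, 543, 573 and 557 at day 1, 546, 573 and 542 at day 3, and 229, 244 and 256 at day 7. With ML-792 they were 299, 269 and 288, then 442, 468 and 423, then 739, 597 and 758, then 305, 315 and 286. The gene was thus lower than in DMSO at day 1 and higher at day 3 and day 7, with no overlap on these days. On no single day did it pass the test (log2 fold changes −0.21, −0.33, 0.33 and 0.31), and the interaction was lost without letter A, without letter C and without the filter on low counts. Without letter B, 5 members were called for the interaction.

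The stalk genes and Rpsa had no call for ML-792 on any day (edgeR). With ML-792, Rplp0 had 6707, 7165 and 7455 at day −2, 11161, 11027 and 11854 at day 1, 12514, 11420 and 13813 at day 3, and 5844, 4617 and 5659 at day 7. Rplp1 had 4445, 6223 and 5426, then 6523, 9172 and 8081, then 7672, 12405 and 8280, then 3743, 5630 and 3287. Rpsa had 879, 871 and 1134, then 1450, 1558 and 1514, then 1914, 2648 and 1729, then 822, 1150 and 850. In these 3 genes every treated library of day 7 was below every treated library of day 3. Rplp2 had 36.2, 46.0 and 53.1, then 49.4, 56.1 and 85.3, then 57.7, 119 and 75.7, then 77.4, 66.0 and 36.7, with days 3 and 7 overlapping.

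Labelled reads show RNA made in the last 45 min, together with sequencing and mapping errors that also give T>C. Over all genes they dropped steeply after induction: scaled by total reads, the median log2 fold change against day −2 over 6214 genes was −1.16, −1.57 and −1.44 on days 1, 3 and 7. The medians over the 31 tested members were 0.12, −0.16 and −0.77. The median member thus lay near its day −2 level on days 1 and 3, where the median gene was far below, and was fitted lower on day 7. Both medians are over genes that passed a filter on labelled reads, and a gene could pass on its day −2 reads alone. DMSO libraries held 528191 to 820046 labelled reads at day −2 and 146222 to 285203 later. The median fall over all genes can thus be partly set by the filter, and how much was not tested.

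By edgeR's quasi-likelihood test, 0 members were called in labelled reads at day 1 (3 with an unadjusted p under 0.05, DESeq2 0), against 19.1% of all genes. At day 3, 0 were called by edgeR (7 with an unadjusted p under 0.05, DESeq2 1), against 33.6%. At day 7, 3 fell and 0 rose, against 30.3%. These were Rpl15, Rps24 and Rpl4, and none of the 3 remained called when any letter was left out, without the filter or after subtracting a background.

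The direction of these medians depends on the scale. With labelled reads scaled by their own totals, which sets the general drop aside, the medians of all genes were −0.16, −0.37 and −0.31 and those of the members 1.09, 1.01 and 0.31. On that scale 6 members rose at day 1, among them Rpl14, Rplp1, Rps15a and Rps21, 7 rose at day 3, among them Rpl13a, Rpl14, Rplp1 and Rps21, and 0 were called at day 7. The share of all genes called on that scale is not given here, so these counts are not set against a general rate. On both scales the members lay above the median gene on all 3 days.

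Rpl4, a large subunit gene with high counts, had normalised labelled counts of 98.5, 206 and 95.8 at day −2, 50.6, 103 and 42.1 at day 1, 62.9, 91.7 and 43.8 at day 3, and 40.5, 64.5 and 52.3 at day 7. All 3 libraries of day 7 were below those of day −2 (log2 fold change −1.34 ± 0.42, adjusted p = 0.00759, edgeR). Rps24 had 61.7, 84.6 and 41.8 at day −2 and 33.7, 15.6 and 21.6 at day 7, also without overlap (−1.40 ± 0.45, adjusted p = 0.00976, edgeR). Rpl15 had 8.01, 14.1 and 16.5 at day −2 and 2.25, 0 and 1.14 at day 7, also apart (−3.40 ± 1.09, adjusted p = 0.00973, edgeR). The counts of Rpl15 are few, and its fitted fold change is correspondingly wide.

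Rpl14 and Rplp1 had their highest labelled counts on days 1 and 3. Rpl14 had labelled counts of 95.3, 107 and 92.3 at day −2, 123, 216 and 122 at day 1, 158, 195 and 176 at day 3, and 68.6, 95.8 and 104 at day 7. Rplp1 had 145, 162 and 105 at day −2, 202, 291 and 214 at day 1, 190, 218 and 271 at day 3, and 98.9, 71.8 and 84.2 at day 7. In both genes every library of day 1 and of day 3 was above every library of day −2, and neither passed the test on the scale of total reads. At day 7 Rplp1 was below all its day −2 libraries, and Rpl14 overlapped them.

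Other members at the ends of the ranking were not called. At day 1 the fitted rises were largest for Rpl21 (0, 1.76 and 0 at day −2 and 0, 4.5 and 0 at day 1), Rpl37a (10.4, 6.17 and 11.3, and 23.4, 17.1 and 14.3) and Rps21 (29.6, 61.7 and 14.8, and 52.4, 78.2 and 54.7). The fitted falls were largest for Rps27l (27.2, 50.2 and 25.2, and 7.49, 15.3 and 10.9), Rps28 (10.4, 17.6 and 6.09, and 10.3, 0 and 1.68) and Rpl4. Of these, Rpl37a and Rps27l had groups that did not overlap at day 1, and none passed the test. At day 7 Rpl21 (2.25, 6.25 and 11.4) was highest, followed by Rpl13a (13.6, 13.2 and 10.4 at day −2, and 19.1, 10.4 and 7.96), and Rpl7 (20.0, 15.0 and 28.7, and 4.5, 4.16 and 3.41) and Rps28 (3.37, 2.08 and 3.41) were among the lowest. Apart from Rpl13a these lay clear of their day −2 values, with no call.

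ML-792 changed no member's labelled reads by the test. By edgeR, 0 of 31 were called at day −2 (0 with an unadjusted p under 0.05), day 1 (2), day 3 (1) and day 7 (0), and DESeq2 also called 0 on each day. The shares of all genes called were 0%, 1.01%, 1.17% and 0.982%, so that few genes of any kind passed at this depth. For the interaction, 0 members were called (0 with an unadjusted p under 0.05, DESeq2 0), against 0.29% of all genes. The fitted medians for the members were −0.23, −0.18, 0.22 and −0.28, and for all genes −0.19, −0.30, −0.10 and −0.37.

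The labelled share, the labelled reads of a gene as a percentage of its total reads, rises with the part of an mRNA pool that is new and with the number of T positions read. For the members in DMSO it was 0.836% ± 0.102 (SD, n = 3) on day −2, then 0.646% ± 0.0226, 0.613% ± 0.0591 and 0.678% ± 0.102 on days 1, 3 and 7. All other genes together had 3.23% ± 0.468, 1.29% ± 0.0731, 1.03% ± 0.111 and 1.01% ± 0.091. Between day −2 and day 1 the share of the other genes dropped more than that of the members, with no test made. With ML-792 the members had 0.764%, 0.606%, 0.632% and 0.556% and the other genes 2.87%, 1.06%, 0.943% and 0.825%.

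**Figure D4:**
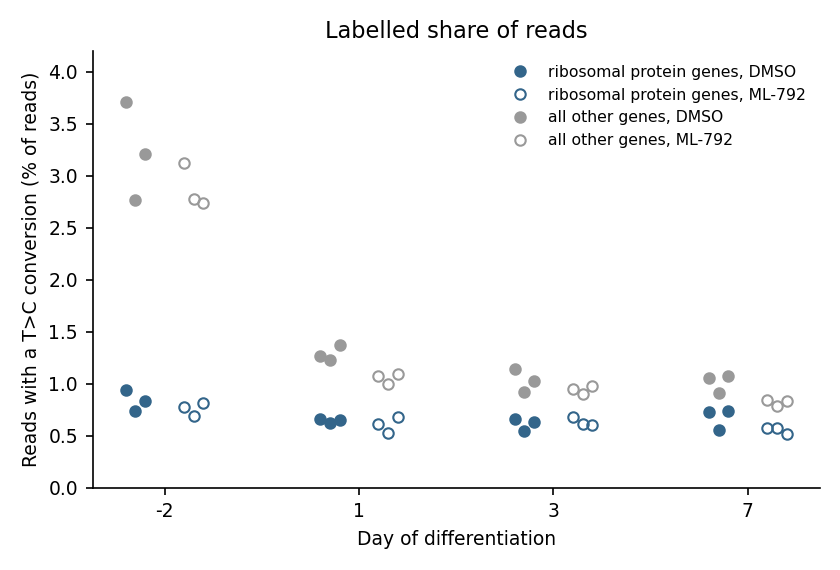
Labelled reads as a percentage of total reads, summed over the 85 members and over all other genes, by day of differentiation. Points are single libraries, filled for DMSO and open for ML-792. On average the other genes drop from 3.23% to 1.29% between day −2 and day 1 in DMSO and the members from 0.836% to 0.646%.

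A part of each share is background. The lowest 1 percent of well-covered entries had labelled shares of 0% to 0.332% in the 24 libraries, and of 0% to 0.0974% in the DMSO libraries of days 1, 3 and 7. No unlabelled library was used here. Since the T positions differ between genes, the levels of the shares are not compared between genes, and only their changes over days are.

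Gene by gene, the drop in labelled share after day −2 was smaller in members than in most genes. It was taken as the DMSO share at day −2 over that pooled from days 1, 3 and 7, for genes with at least 20 labelled and 1000 total reads. The median ratio was 1.34 over 40 members and 2.48 over 6355 other genes. In 23 of 40 members (57.5%) the ratio was under 1.5, against 15.9% of the other genes. It was 2 or more in 11 members and in 4297 of the 6355 other genes. No background was subtracted here, and at day −2 it was 0.118% to 0.332% in DMSO. Some members lay close to it on that day, such as Rpl13a (0.331%) and Rpl22 (0.339%). Others lay well above it, such as Rplp1 (2.45%) and Rpl14 (1.46%). This background is a low end over entries, and the T>C errors of single genes were not measured. A share near the background has little room to drop, and the part of this in the ratios was not tested.

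Members with a nearly constant share included Rplp1 (2.45% at day −2 and 2.70% later), Rpl14 (1.46% and 1.61%) and Rps21 (1.77% and 1.97%). The end of the Rplp1 entry has 6 near-identical places in the genome, and their part in its share was not tested. No such place was found for Rpl14 and Rps21. For Rplp1 these are 486 labelled of 19832 reads and 1605 of 59412. In Rplp1, Rpl14 and Rps21 the share was slightly higher after induction than before. The part of T>C errors in the shares of these genes was not tested. Members with a falling share included Rpl27a (0.722% and 0.165%), Rpl7l1 (2.31% and 0.698%), Rpl15 (2.06% and 0.687%), Rpl22l1 (1.14% and 0.395%), Rps27l (1.31% and 0.512%) and Rpl4 (0.733% and 0.307%). For Rpl27a only 24 of 14529 later reads were labelled. The paralogs Rpl7l1, Rpl22l1 and Rps27l were all among the 11 members with a ratio of 2 or more. Such a ratio was common, as 4297 of 6355 other genes had it.

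**Figure D5:**
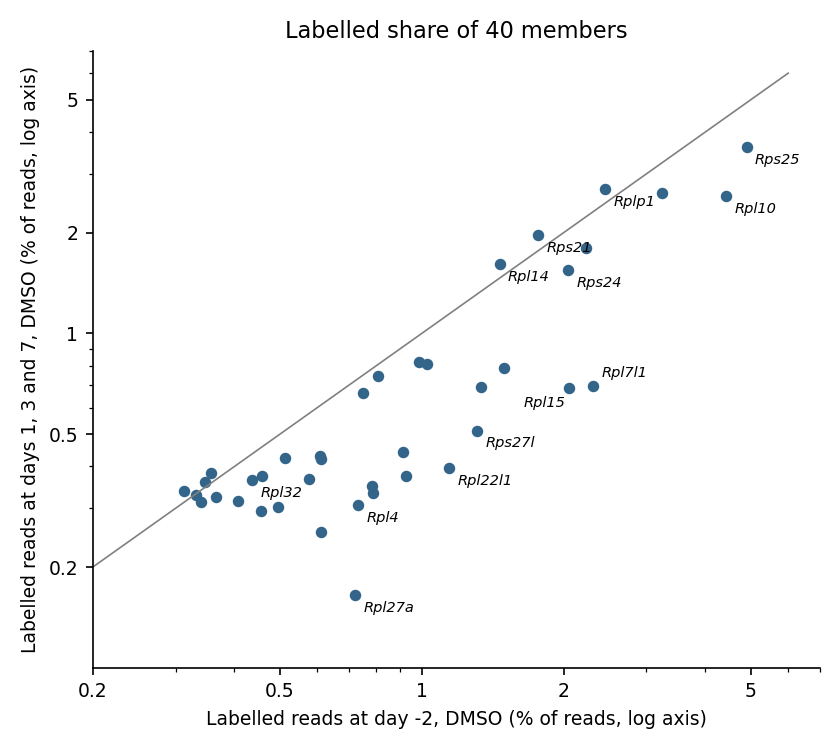
Labelled share of each member in DMSO at day −2 (horizontal axis, percent, log scale) and pooled over days 1, 3 and 7 (vertical axis, percent, log scale), for the 40 members with enough reads. The line marks equal shares. Rplp1, Rpl14 and Rps21 lie just above it, and Rpl27a, at 0.722% and 0.165%, lies farthest below.

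In Rpl7l1 total and labelled reads parted. Its total reads rose to day 3, whereas its labelled reads were 76 of 3290 at day −2 and 122 of 17486 over days 1, 3 and 7 pooled. The ratio of its shares was 3.31, and over other genes the median was 2.48 and the upper quartile 3.31. The many genomic matches to the end of its entry make its labelled reads uncertain too. Rpl37a, whose total reads rose most at day 1, had 33 labelled of 3216 reads at day −2 and 112 of 13819 later (1.03% and 0.81%), a ratio of 1.27. The share of Rps25 was 4.90% and 3.60%, and that of Rpl10 was 4.43% and 2.57%.

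Other genes of the pathway were taken from lists. Rack1, a ribosomal protein gene whose name falls outside the rule, had a log2 fold change of −1.01 ± 0.20 from day 3 to day 7 (adjusted p = 0.00234, edgeR). A list of 17 other genes with TOP mRNAs held mostly translation factors, but also genes such as Nap1l1, Npm1 and Tpt1. Of the 17, 2 fell from day 3 to day 7 and 0 rose, where 4.78% of all genes fell and 6.07% rose. The median of the list was −0.69. The 2 that fell were the elongation factor gene Eef1b2 (−1.31 ± 0.30, adjusted p = 0.00719, edgeR) and Nap1l1 (−0.89 ± 0.16, adjusted p = 0.00119, edgeR). At day 7 against day −2, Nap1l1 alone fell and 0 rose, where 19.2% of all genes fell and 19.4% rose. At day 3 Eif3l alone rose, where 18% of all genes rose. At day 1 no member of this list was called, where 7.65% of all genes rose and 9.4% fell. With ML-792, Tpt1, another classical TOP gene, had a difference of −1.13 ± 0.26 at day 1 (adjusted p = 0.00923, edgeR). It was also lower at day 3, at −0.75 ± 0.26 (adjusted p = 0.0745, edgeR). Of the 17, Tpt1 alone was called on these days, against 7.9% and 15.6% of all genes called in either direction.

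Of 41 ribosome assembly factors tested in DMSO, 6 rose at day 1, 19 at day 3 and 11 at day 7 against day −2, and 0 fell on any of these days. Over all genes 7.65%, 18% and 19.4% rose. Among those that rose on all 3 days were the nucleolar proteins Nop2 and Nop16, Grwd1, Rrp12 and the polymerase I subunit gene Polr1b. Nop16 had log2 fold changes of 1.34, 1.89 and 1.33. The median of the list was 0.56, 0.75 and 0.44 on these days and −0.40 from day 3 to day 7, where 0 were called. With ML-792, 2 were higher at day 3 (Wdr12 by 0.83 and Grwd1 by 0.67 on the log2 scale), against 15.6% of all genes called in either direction. On the other days 0 were called by edgeR. At day 7 the median assembly factor was thus fitted above its pre-adipocyte level and the median ribosomal protein gene below it.

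Of 16 regulators of TOP mRNAs and mTORC1, 1 rose at day 1, 4 at day 3 and 5 at day 7, and 0 fell on these days, beside the 7.65%, 18% and 19.4% of all genes that rose. With so few genes these counts are near the general rate. The largest rise was that of Larp1b, a relative of Larp1, with log2 fold changes of 1.34, 3.26 and 3.15. Mtor itself rose at day 3 and day 7 (1.11 and 1.08), as did the translation repressor gene Eif4ebp2 (1.34 and 1.20). Larp1 was at −0.32, 0.39 and 0.27 and was not called. From day 3 to day 7 Myc, a transcription factor that drives ribosome production, fell by 2.21 ± 0.49 on the log2 scale (adjusted p = 0.00597, edgeR). Of the 16, Myc alone was called in this step, where 4.78% of all genes fell and 6.07% rose. At day 7 Myc was higher with ML-792 (1.38 ± 0.46, adjusted p = 0.0829, edgeR) while Larp1b was lower (−0.57 ± 0.17, adjusted p = 0.047, edgeR). These were 2 of 16, against 11.8% of all genes called in either direction. The part of Myc in the members' values was not tested.

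Mitochondrial ribosomal proteins, which build the separate ribosome of mitochondria, were added as a list after their values had been seen. Of 76 tested, 8 rose at day 1, 58 at day 3 and 53 at day 7, and 1 fell, at day 7. The shares of all genes that rose were again 7.65%, 18% and 19.4%, and the day 1 count is near the first of them. The median was 1.33 at day 3 and 1.15 at day 7, and −0.06 from day 3 to day 7, where 1 was lower. With ML-792, 1 was higher and 1 lower at day 3 and 3 were higher at day 7, against 15.6% and 11.8% of all genes called in either direction. In adipocytes at day 7 the genes of the 2 kinds of ribosome therefore stood, by their medians, on opposite sides of the pre-adipocyte level, with log2 fold changes of 1.15 for the mitochondrial and −0.63 for the cytosolic members.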

How the data were processed

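The authors deposited counts of reads for each RefSeq 3′UTR entry, in 1 table of total reads and 1 of reads with at least 1 T>C change, made with SlamDunk on mm10. The submitters' processing notes name bcl2fastq 2.17.1.14. Both hold 91830 entries. The treatment of reads with several matching places cannot be read from the tables, and 6 library columns per table that match no sample label were not used. Members and lists were chosen with earlier results of these data known. Counts were tested with edgeR 4.0.16 (quasi-likelihood, robust, TMM, R 4.3.3) over all entries with enough reads (filterByExpr, minimum count 10, minimum total 15), with Benjamini-Hochberg adjustment. Days were compared in the 12 DMSO libraries (adjusted p 0.01), and ML-792 with DMSO in all 24 (adjusted p 0.1). Labelled reads took the library sizes and factors of total reads. Normalised counts are scaled to the mean effective library size. DESeq2 1.42.0 and the settings in the closing section were alternatives. Near-identical copies were sought with blastn 2.17.0. Values per library are given for the 3 highest and 3 lowest called members at day 7 and with ML-792 at day 7, the 2 highest and lowest with ML-792 on other days, the 3 highest and lowest in labelled reads at days 1 and 7, paralog pairs, stalk genes, Rpsa and the 3 members least like the mean profile. Nothing in the sources used here says whether the letters mark separate cultures in a shared batch, and p-values measure the spread between these libraries. Results for a few genes are not reported here. The code was tested on simulated data.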

Additional observations from a re-analysis of the deposited data

Results flagged for a closer look

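The response of Rps25 to ML-792 differed between days by the test of the interaction itself (adjusted p = 0.0415, edgeR's quasi-likelihood F-test). On days −2, 1, 3 and 7 its log2 fold change of ML-792 against DMSO was −0.21, −0.33, 0.33 and 0.31. The result was chosen for mention because the test was of the difference between days.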

How the results depend on the processing

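The number of members called depended on the setting more than the direction did, and none of the 87 values of named genes recomputed under an alternative changed sign: 63 kept their side of the threshold and 24 lost the call. With DESeq2 the calls in total reads were 37 from day 3 to day 7, 2 from day 1 to day 3 and 2 for the interaction, and in labelled reads 1 at day 3 and 6 at day 7. Over all genes DESeq2 called 2180 from day 3 to day 7, where edgeR called 1441, so the general rate moved with the setting too. For the other settings it is not given in this section, and their counts are not set against it. Without a filter on low counts they were 16 at day 7 against day −2, 39 from day 3 to day 7, 2 for the interaction and 0 in labelled reads at day 7. With 1 entry per gene they were 2 from day 1 to day 3 and 2 for the interaction. With library totals alone they were 16 at day 7 against day −2 and 6 in labelled reads at day 7. Labelled reads scaled by their own totals gave 6 calls at day 1, 7 at day 3 and 0 at day 7, and less background 0 at day 7. Leaving out a letter gave 1 to 9 calls at day 1, 1 to 16 at day 3, 1 to 12 at day 7, 0 to 2 from day 1 to day 3, 1 to 32 from day 3 to day 7, 0 to 3, 0 to 4 and 0 to 3 for ML-792 at days 1, 3 and 7, 0 to 5 for the interaction, and 0 in labelled reads at day 7.

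Letters A, B and C were also fitted as a replicate block. Same-letter libraries deviated together in part (mean correlation 0.194 in total reads, with 68 of 84 above 0.1 and the lowest at −0.175, and 0.0725 in labelled reads). For different letters the mean was −0.0953 in total reads, with 21 of 168 above 0.1, and −0.0361 in labelled reads. Same-letter libraries were thus more alike, but the labels do not say what the letters mark. The main tests use no block, and their counts ignore this likeness. With the block the calls were 14, 18 and 25 at days 1, 3 and 7 against day −2, 2 from day 1 to day 3, 40 from day 3 to day 7, 5 and 4 for ML-792 at days 3 and 7 and 6 for the interaction. The shares of all genes called with the block are not given here, so these counts are not set against a general rate.

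As medians over members with at least 1000 reads, the labelled shares in DMSO were 0.611%, 0.400%, 0.426% and 0.563% from day −2 to day 7, and 0.590%, 0.418%, 0.397% and 0.367% with ML-792. With all entries of all genes summed, the members' shares of reads were 1.03%, 1.42%, 1.33% and 0.643% in DMSO and 0.947%, 1.34%, 1.48% and 0.709% with ML-792.

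In labelled reads, 54 of 85 members could not be tested at this depth. The cause of the changes with the setting was not tested.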
